A study of Mus musculus with 4 samples.

Results

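Mouse retinas whose blood vessels carried a stabilized form of beta-catenin were set against retinas that did not, over both states of the gene Ndp, which encodes Norrin, a secreted ligand. The 2 libraries with stabilization were compared with the 2 libraries without it, which together are all 4 libraries of the series. A gene entered when its status was OK in all 4 libraries, its mean was at least 1 FPKM (fragments of RNA per transcript length and sequencing total) and its symbol was not that of a short RNA (Mir, Snor, Scarna or Rnu). Of 23278 genes in the deposited table, 12905 met these conditions. A gene was called consistent when both stabilized values lay above both others, or both below. That choice set no size, and the last gene inside the minimum was Slco2b1 with a mean of 1.00 FPKM, while 6230427J02Rik lay just outside it at 0.999 FPKM.

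The stabilized knockout library had the genotype NdpKO;Ctnnb1flex3/+;Pdgfb-CreER and the stabilized library Ctnnb1flex3/+;Pdgfb-CreER. The knockout library was NdpKO alone and the WT library had none of these alleles. Every mouse, those without CreER included, had been given 20 μg of 4HT into the peritoneum at P3, and retinas were taken at P10 from a mixed strain holding at least C57BL6 and 129. 4HT activates CreER, a recombinase that the Pdgfb regulatory sequence expresses in endothelial cells, and recombination of the flex3 allele removes the part of beta-catenin through which it is marked for destruction. RNA of 3 batches was pooled into 1 library per genotype, and each batch held 4 to 8 whole retinas of at least 2 mice. The spread between mice was therefore not measured, and CreER, the recombined allele and the strain make-up of each pool cannot be told apart.

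Norrin reaches endothelial cells from Müller glia, binds Frizzled-4 with the co-receptor Lrp5 and the tetraspanin Tspan12, and keeps beta-catenin from being degraded. Beta-catenin then enters the nucleus and acts with transcription factors of the TCF/LEF family. In retinal and brain vessels this pathway is known for the growth of the deep capillary beds and for the blood-retina barrier, in which tight junctions seal the vessel wall and transporters replace free passage.

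The deposited FPKM summed to 427109 in the stabilized knockout, 405525 in the stabilized library, 417911 in the knockout and 423695 in WT, and the number of reads behind them is unknown. Ndp was at 0.869 and 0.873 FPKM in the stabilized knockout and the knockout, below 2.35 and 2.98 FPKM in the stabilized library and WT. Xist, an RNA made from the inactive X, was at 1.28 and 1.25 FPKM in the stabilized knockout and the knockout, against 130 and 135 FPKM in the stabilized library and WT. Each side of the stabilization comparison thus held 1 male-like and 1 female-like pool, and sex and Ndp genotype shared 1 term in the fit. All 20 rod, 14 cone, 16 bipolar and 16 Müller glia markers met the filter. Of tissue that a dissection can carry along, 10 of 15 pigment epithelium genes met it, and their list summed to 250 and 265 FPKM in the stabilized libraries, against 275 and 275 FPKM in the others. Of 16 lens genes 1 met it, with no lens crystallin over 4 FPKM in any library.

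Genes were tested with limma in a fit of log2(FPKM + 0.5) on stabilization and Ndp genotype without an interaction, and called at a Benjamini-Hochberg adjusted p under 0.05 over all 12905 genes. With 1 library per genotype this leaves 1 residual degree of freedom, and the error is the disagreement between the pair without Ndp and the pair with it, shared across genes. A total of 236 genes (1.83% of those tested) were higher with stabilization and 144 (1.12%) lower. Of the 236 genes 106 were at least 1.5-fold and 36 at least 2-fold higher. Of the 144 genes 34 were at least 1.5-fold and 7 at least 2-fold lower. The median log2 difference was 0.55 among the higher genes, -0.48 among the lower genes and 0.01 among all tested genes. For 89 of the higher and 27 of the lower genes the deposited intervals were apart within both pairs, as they were for 0.697% and 0.209% of all tested genes in these directions. The Ndp term of the same fit called 20 genes (0.155%). An exact permutation test of 2 libraries against 2 cannot go below p = 0.333, so each p here rests on limma's sharing of the error across genes.

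The counts depended on the model. A total of 100 higher and 134 lower genes were called without the stabilized knockout, 78 and 26 without the stabilized library, 48 and 9 without the knockout, and 47 and 12 without WT. These fits had 3 libraries and no Ndp term, and 29 higher and 4 lower genes were called in all 4 of them. With all 4 libraries and no Ndp term 98 higher and 43 lower genes were called, so for a call lost in such a fit the missing library and the missing term cannot be told apart. With short RNA genes kept, 5 and 14 genes were called, or 162 and 108 with limma's robust estimate of the shared variance. Re-centring each library on its median gave 483 higher and 449 lower calls, which moved the share of higher genes, and no call of the main fit changed sign in any setting tried.

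Without a size, libraries did not overlap for 3814 genes (29.6%) in the higher and 3106 (24.1%) in the lower direction. With at least 1.5-fold these counts were 109 (0.845%) and 42 (0.325%), and with at least 2-fold 39 (0.302%) and 7 (0.0542%). The pairs share no library, so genes chosen in one could be looked up in the other. Of 155 genes at least 1.5-fold higher in the stabilized library than in WT, 142 (91.6%) were higher in the stabilized knockout than in the knockout, against 59.6% of all genes, and 77 (49.7%) were at least 1.5-fold higher, against 1.22%. Of 135 genes at least 1.5-fold lower in the stabilized library than in WT, 101 (74.8%) were lower in the stabilized knockout than in the knockout, against 40.4% of all genes, and 20 (14.8%) at least 1.5-fold lower, against 0.488%. Of 157 genes at least 1.5-fold higher in the stabilized knockout than in the knockout, 137 (87.3%) were higher in the stabilized library than in WT, against 46.1% of all genes, and 77 (49%) at least 1.5-fold higher, against 1.2%. Of 63 genes lower in the first pair by that size, 48 (76.2%) were lower in the second, against 53.9% of all genes, and 20 (31.7%) at least 1.5-fold lower, against 1.05%. The shared part was larger for higher than for lower genes, a difference that was not tested. Across genes, which are not independent replicates, Pearson's r between the pairs was 0.481 and Spearman's coefficient 0.518.

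**Figure D1:**
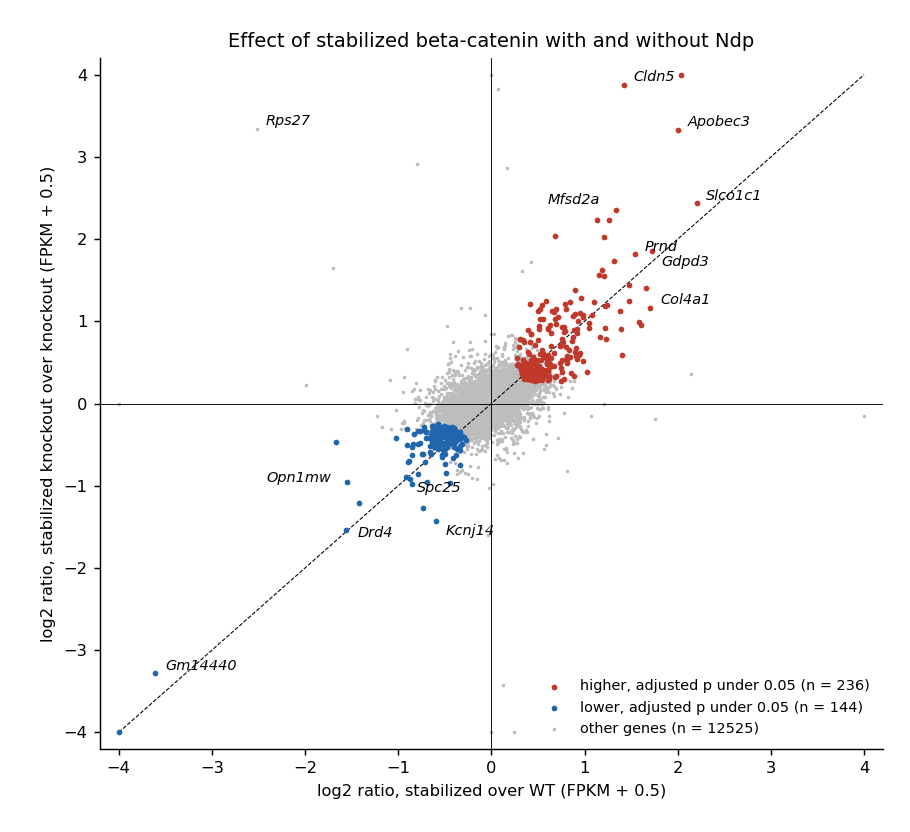
Log2 ratio of each tested gene in the stabilized knockout over the knockout (vertical axis) against the stabilized library over WT (horizontal axis), on FPKM + 0.5, with values past 4 drawn at the edge. The 236 genes called higher and the 144 called lower are marked, and Rps27 has opposite signs in the pairs. The error of the fit is the disagreement between the pairs, so the calls favour genes near the diagonal.

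Genes of the blood-retina barrier held the largest differences among vascular genes. Cldn5, the claudin of endothelial tight junctions, was at 16.7 and 19.4 FPKM in the stabilized knockout and stabilized libraries, against 0.675 and 6.91 FPKM in the knockout and WT. Both stabilized libraries lay above both others, and the gap was wider without Ndp (log2 ratio 3.87) than with it (1.43), where the WT level was already 6.91 FPKM. In whole retina, more endothelial cells and more RNA per endothelial cell cannot be told apart. The additive log2 difference was 2.65 ± 0.43 (SE), with a limma adjusted p of 0.0201. Slco1c1, a transporter of thyroid hormone, was at 2.32 and 3.63 FPKM with stabilization, against 0.0206 and 0.396 FPKM without it. Its ratios in the pairs were close to each other, at 2.44 without Ndp and 2.20 with it, and the difference was 2.32 ± 0.14 (adjusted p = 0.000237), though without the knockout it was not called (1.93). Mfsd2a, which carries lysophospholipids into the endothelium, was at 4.86 and 3.80 FPKM in the stabilized libraries, against 0.545 and 1.20 FPKM in the others, a difference of 1.85 ± 0.21 (adjusted p = 0.00312). Its groups were apart, and the knockout held the lowest value.

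Pglyrp1, a peptidoglycan recognition protein, reached 2.96 and 1.72 FPKM with stabilization, against 0.234 and 0.426 FPKM without it (difference 1.75, adjusted p = 0.00536). The glutamine transporter gene Slc38a5 reached 1.33 and 2.60 FPKM, against 0.172 and 0.611 FPKM (1.46, adjusted p = 0.00195). In both genes the stabilized values lay above the others. Pglyrp1 was not called without the knockout (1.58) or without WT (1.91), and Slc38a5 was called only without the stabilized knockout (1.84). The cationic amino acid transporter gene Slc7a1 rose by 0.97, the large neutral amino acid transporter gene Slc7a5 by 0.60 and the organic anion transporter gene Slco2b1 by 0.85. Slc2a1, the glucose transporter of barrier endothelium, which retinal cells other than endothelium also express, was at 94.5 and 77.1 FPKM with stabilization, against 92.6 and 79.9 FPKM without it. Its libraries overlapped and its difference was -0.01 (adjusted p = 0.954). In all, 8 of 24 tested barrier genes were higher and none was lower, against 1.83% and 1.12% of all tested genes. The median difference was 0.28. Of these 8 genes 5 (Mfsd2a, Pglyrp1, Slc38a5, Slco1c1 and Slco2b1) averaged under 1 FPKM without stabilization and met the minimum only through the stabilized libraries. Counts over tested members depend on the change in this way, also for the pan-endothelial (3 called genes), basement membrane (3) and mural cell (3) lists. Over all 32 listed genes, the low ones included, libraries did not overlap in the higher direction for 23 (71.9%), against 26.4% of the 19344 genes detected in any library. Abcb1a, the gene of the efflux pump P-glycoprotein, was under the minimum mean, at 1.02 and 0.893 FPKM with stabilization, against 0.0665 and 0.287 FPKM without it. Cldn5 was called in 2 of the 4 fits without 1 library, at 1.32 without the knockout and 3.98 without WT, but not without the stabilized knockout (2.76) or the stabilized library (2.55). With the robust estimate neither Cldn5 nor Mfsd2a was called, and over all settings the adjusted p of Cldn5 ran from 0.000203 to 0.573 and that of Mfsd2a from 7.33e-05 to 0.462.

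The sequence before the start of the 4 barrier genes of largest difference is shown because they rose together, with capitals for motifs found. Each holds 250 bases before the start, 5′ to 3′ on the strand of the gene, from RefSeq on GRCm38.p6. Cldn5 is read from the plus strand of chr16:18776597-18776846, Slco1c1 from the plus strand of chr6:141524104-141524353, Mfsd2a from the minus strand of chr4:122961189-122961438 and Pglyrp1 from the plus strand of chr7:18884440-18884689.
Cldn5: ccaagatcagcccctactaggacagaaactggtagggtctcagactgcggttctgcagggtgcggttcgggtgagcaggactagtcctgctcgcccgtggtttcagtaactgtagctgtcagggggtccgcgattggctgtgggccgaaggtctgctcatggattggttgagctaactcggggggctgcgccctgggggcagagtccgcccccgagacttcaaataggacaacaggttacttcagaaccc
Slco1c1: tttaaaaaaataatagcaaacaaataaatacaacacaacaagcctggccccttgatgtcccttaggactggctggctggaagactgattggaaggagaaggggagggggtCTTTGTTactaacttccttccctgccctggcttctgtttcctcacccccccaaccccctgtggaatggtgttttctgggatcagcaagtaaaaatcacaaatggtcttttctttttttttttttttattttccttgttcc
Mfsd2a: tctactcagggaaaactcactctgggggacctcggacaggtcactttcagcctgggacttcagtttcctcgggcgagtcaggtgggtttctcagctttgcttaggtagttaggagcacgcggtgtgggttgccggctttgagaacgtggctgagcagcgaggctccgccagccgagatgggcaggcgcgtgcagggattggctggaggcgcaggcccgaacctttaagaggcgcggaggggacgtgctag
Pglyrp1: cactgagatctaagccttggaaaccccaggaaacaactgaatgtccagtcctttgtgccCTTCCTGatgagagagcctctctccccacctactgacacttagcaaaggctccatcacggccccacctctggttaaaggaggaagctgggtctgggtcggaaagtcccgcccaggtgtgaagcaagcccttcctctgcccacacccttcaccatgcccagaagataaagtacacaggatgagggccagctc

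The motifs searched on both strands were CTTTGAT or CTTTGTT for TCF/LEF, ACAATG for SOX factors and CAGGAAG or CCGGAAG for ETS factors, and none contains another. Slco1c1 holds CTTTGTT starting 140 bases before the start, and Pglyrp1 holds CAGGAAG on the opposite strand 191 bases before it, printed as CTTCCTG. None of these letters occurs in the windows of Cldn5 and Mfsd2a. Of 12905 tested genes 9160 had a promoter in the RefSeq table, and 5.33% held the TCF/LEF letters, 5.93% the SOX letters and 21.4% the ETS letters. Among 157 genes called higher these shares were 4.46%, 3.18% and 14.6%, and among 99 called lower 4.04%, 7.07% and 18.2%. Of 11 genes called higher on the pan-endothelial or barrier list, 1 (9.09%) held the TCF/LEF letters, 0 the SOX letters and 3 (27.3%) the ETS letters.

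General endothelial genes were higher too, and Cldn5 is on this list as well as on the barrier list. Pecam1, the adhesion molecule CD31, was at 4.08 and 4.12 FPKM with stabilization, against 2.02 and 1.93 FPKM without it, and each group was narrow compared with the gap (difference 0.89, limma adjusted p = 0.00312). Cd93, a glycoprotein of the endothelial surface, was at 5.44 and 4.44 FPKM, against 1.29 and 1.49 FPKM (1.52 ± 0.12, adjusted p = 0.000931). Tie1, an orphan receptor of the angiopoietin system, was at 2.85 and 2.65 FPKM, against 0.643 and 0.864 FPKM (1.38, adjusted p = 0.00195). Eltd1, an adhesion G protein-coupled receptor, had a difference of 1.62, Eng, the co-receptor endoglin, 1.25, and Cdh5, the cadherin of endothelial junctions, 1.15. In each of these genes both stabilized libraries lay above both others. In total 13 of 20 tested pan-endothelial genes were higher and none was lower (median 0.71), against 1.83% and 1.12% of all tested genes. Eltd1, Icam2 and Tie1 met the minimum only through the stabilized libraries. Of all 30 listed genes 26 (86.7%) did not overlap in the higher direction, against 26.4% of detected genes. In the lower direction 3 (10%) did not, against 21.3%. Kdr, the VEGF receptor that retinal progenitors also express, was at 45.7 and 47.7 FPKM, against 39.9 and 39.0 FPKM, and was not called (0.24, adjusted p = 0.118). Pecam1, Cd93, Tie1, Eltd1 and Eng were called in each fit without 1 library, and Cdh5 was not called without WT (0.86).

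Of 11 tested arterial, venous and Notch genes 3 were higher and none lower. Besides Slc38a5 these were Aplnr, the apelin receptor of venous and tip cells, at 3.54 and 3.52 FPKM with stabilization against 1.16 and 1.56 FPKM without it (1.12), and the arterial connexin gene Gja4 at 1.87 and 1.80 FPKM against 0.640 and 0.668 FPKM (1.02). Both sets of libraries were apart in both genes. The median of the list was 0.16, and of all tested genes 1.83% were called higher and 1.12% lower. Gja4 and Slc38a5 averaged under 1 FPKM without stabilization and met the minimum only through the stabilized libraries. Of all 16 listed genes 9 (56.2%) did not overlap in the higher direction, against 26.4% of detected genes, and 2 in the lower. Aplnr was called in each fit without 1 library, and Gja4 was not called without the knockout (1.00) or without WT (1.03).

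Transcription factor genes of endothelium were mostly too low for the test. Sox18, of the SoxF group, was at 3.48 and 3.14 FPKM with stabilization against 1.19 and 1.20 FPKM without it (difference 1.17, adjusted p = 0.00195). Ets1 was at 2.63 and 2.71 FPKM against 0.956 and 1.15 FPKM (1.03), and Tcf7, a TCF/LEF factor and itself a target of the pathway, at 1.28 and 1.54 FPKM against 0.591 and 0.707 FPKM (0.73, adjusted p = 0.0330). These were 3 of 6 tested members and none was lower, against 1.83% and 1.12% of all tested genes. Tcf7 met the minimum only through the stabilized libraries. Sox18 was called in each fit without 1 library and Ets1 in all but that without the knockout (0.94).

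The forkhead gene Foxf2 was at 1.61 and 1.48 FPKM with stabilization, against 0.184 and 0.507 FPKM without it, and Foxq1 at 1.22 and 1.52 FPKM, against 0.0662 and 0.366 FPKM. The SoxF genes Sox17 (0.832 and 0.711 FPKM, against 0.126 and 0.399 FPKM) and Sox7 (0.971 and 0.825 FPKM, against 0.372 and 0.5002 FPKM) lay in the same order. Lef1, the partner of beta-catenin, was at 0.753 and 0.527 FPKM with stabilization, against 0.294 and 0.396 FPKM without it. All of these had means under 1 FPKM and were not tested. Of the 18 listed factors under that mean, 17 (94.4%) did not overlap in the higher direction, against 20% of 6439 genes in that range. Over the whole list the count was 23 of 24 genes (95.8%), against 26.4% of detected genes.

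**Figure D2:**
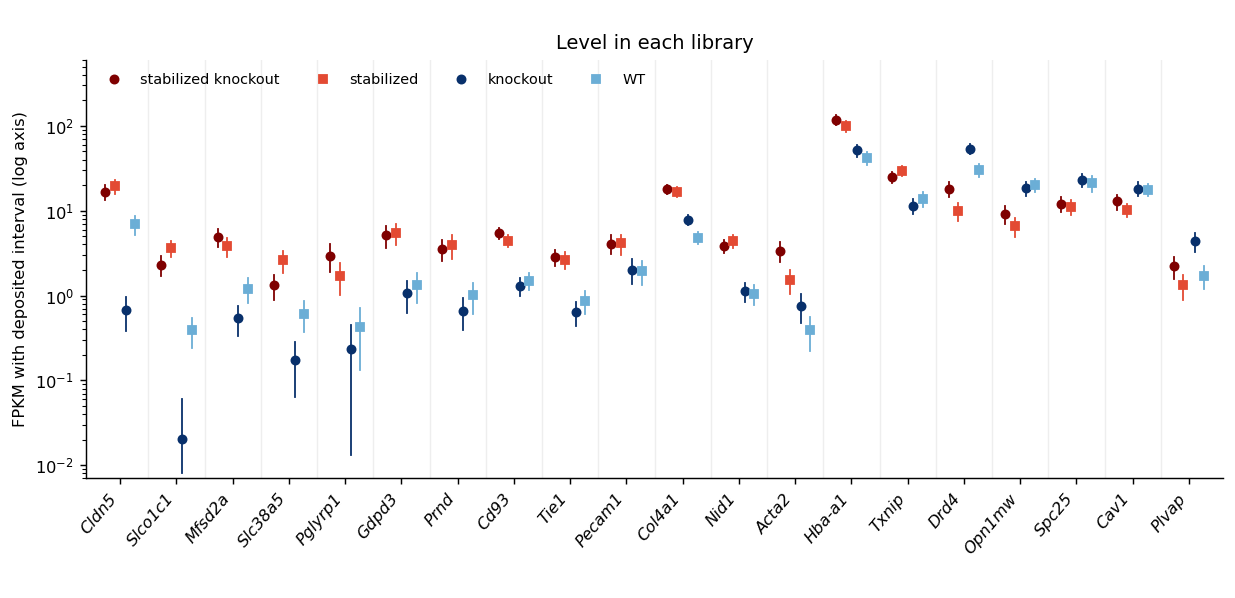
FPKM of 20 genes in each library on a log axis, with the deposited interval as a bar of unstated level. Circles are libraries without Ndp and squares libraries with it. Both stabilized values lie above both others for the barrier, endothelial, matrix and globin genes on the left, and below them from Drd4 to Cav1, while Plvap overlaps.

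Genes of the basement membrane, the matrix sheet that endothelium and pericytes share, rose together. Col4a1 and Col4a2, which form the main collagen IV molecule, were at 18.02 and 16.7 FPKM and at 12.4 and 12.1 FPKM with stabilization. Without it they were at 7.77 and 4.81 FPKM and at 5.98 and 3.69 FPKM. The differences were 1.43 (limma adjusted p = 0.000931) and 1.29 (0.00201), and in both genes the knockout lay above WT. The linker gene Nid1 was at 3.83 and 4.40 FPKM, against 1.13 and 1.05 FPKM (1.53 ± 0.10, adjusted p = 0.000670), the highest difference of the list. Vwa1, a partner of perlecan, rose by 1.36, the laminin gene Lama4 by 1.20 and Nid2 by 1.07, while fibronectin (Fn1, 1.01) and perlecan (Hspg2, 0.99) followed. Of 18 tested members 13 were higher and none lower, against 1.83% and 1.12% of all tested genes. The median of 0.81 was the highest of the lists with at least 8 tested genes. Hspg2, Lama4 and Nid2 met the minimum only through the stabilized libraries. Libraries did not overlap in the higher direction for 17 of all 20 (85%), against 26.4% of detected genes. Col4a1, Col4a2, Nid1, Vwa1 and Lama4 were called in every fit without 1 library, and Nid2 was not called without the knockout (1.15) or without WT (1.00).

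Of 13 tested genes of tip cells and sprouting 6 were higher and none lower (median 0.53), against 1.83% and 1.12% of all tested genes. Col4a1, Col4a2 and Nid2 are among the 6. Of all 17 listed genes 14 (82.4%) did not overlap in the higher direction, against 26.4% of detected genes, and 1 (5.88%) in the lower, against 21.3%. Nid2 met the minimum only through the stabilized libraries. Cxcr4, the chemokine receptor of tip cells, was at 9.70 and 10.05 FPKM with stabilization, against 5.18 and 7.36 FPKM without it (0.63, adjusted p = 0.0217). Pdgfb, the ligand by which tip cells draw in pericytes, was at 2.92 and 2.57 FPKM against 1.11 and 1.14 FPKM (0.99), and the CreER is driven by Pdgfb sequence, so transcripts of the transgene were not told apart from those of the gene. Vegfa, the growth factor that hypoxic retina secretes, lay lower, at 90.8 and 87.0 FPKM against 116 and 107 FPKM, without passing the test (-0.32, adjusted p = 0.0784). Pdgfb was not called without the knockout (0.98) or WT (1.01), and Cxcr4 was called only without WT (0.87).

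Genes of mural cells, the pericytes and smooth muscle cells around the vessel, were higher as well. Acta2, smooth muscle actin, was at 3.38 and 1.53 FPKM with stabilization, against 0.756 and 0.392 FPKM without it (difference 1.41, adjusted p = 0.00258). The pericyte gene Rgs5 was at 21.7 and 25.0 FPKM, against 9.63 and 17.6 FPKM (0.81, adjusted p = 0.0185). The knockout was the lowest library for Rgs5 and WT for Acta2, and the groups did not overlap for either. The channel regulator gene Abcc9 rose by 0.89, Mcam by 0.84 and Notch3, the Notch receptor of mural cells, by 0.81. Tagln, another smooth muscle gene, was at 2.02 and 2.27 FPKM against 2.01 and 2.00 FPKM and was not called (0.08). Over all 17 listed mural genes 12 (70.6%) did not overlap in the higher direction, against 26.4% of detected genes. In all, 6 of 10 tested genes were higher and none lower (median 0.78), against 1.83% and 1.12% of all tested genes. Of the 6 genes, Abcc9, Acta2 and Notch3 averaged under 1 FPKM without stabilization and met the minimum only through the stabilized libraries. Mcam, which endothelium expresses too, was the only one of the 5 named calls made in all 4 fits without 1 library. Acta2 was called only without the stabilized library (1.87) among those fits, Rgs5 only without WT (1.23) and Abcc9 only without the stabilized knockout (0.92), while Notch3 was called in none (0.69 to 0.93). Rgs5 was not called with the robust estimate either.

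Most genes of the pathway itself were not called in whole retina. Ctnnb1, the beta-catenin gene, was at 161 and 156 FPKM with stabilization, against 138 and 144 FPKM without it, a difference of 0.17 that was not called (adjusted p = 0.328), and deletion of an exon cannot be read from 1 value per gene. The feedback gene Axin2 was at 5.80 and 5.35 FPKM, against 5.30 and 5.37 FPKM, with overlapping libraries (0.06, adjusted p = 0.737). Nkd1, another feedback gene, was at 8.63 and 6.65 FPKM, against 6.75 and 7.99 FPKM (0.04), and the receptor gene Fzd4 at 2.09 and 1.89 FPKM, against 1.99 and 2.15 FPKM (-0.05). Apcdd1, an inhibitor of the pathway, did not overlap, at 16.5 and 14.5 FPKM against 9.27 and 12.1 FPKM, and missed the threshold (0.52, adjusted p = 0.0554). Of 18 tested Norrin pathway genes Tcf7 alone was called, and of 14 tested Wnt targets Tcf7 and Ctgf were (Ctgf 0.58). The medians were 0.04 and 0.08, and of all tested genes 1.83% were called higher. Over all 25 listed Wnt targets, 12 (48%) did not overlap in the higher direction, against 26.4% of detected genes, and of the 11 under a mean of 1 FPKM 6 (54.5%) did not, against 20% of genes in that range. In the lower direction 3 (12%) of all and 2 (18.2%) of the low Wnt targets did not overlap, against 21.3% and 15.7%. Among the low genes in the higher direction, which were not tested, Notum, a secreted inhibitor of Wnt ligands, was at 0.360 and 0.379 FPKM with stabilization. Without it Notum was at 0.105 and 0.0952 FPKM. The receptor gene Tnfrsf19 was at 1.23 and 1.02 FPKM, against 0.5995 and 0.684 FPKM. Retinal neurons and glia express most of these genes, so levels within endothelium were not measured. Tcf7 was called in 1 of the 4 fits without 1 library, the one without the stabilized knockout (0.83).

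Genes of fenestrae and caveolae did not share a direction. Plvap, the diaphragm protein of fenestrated vessels, was at 2.22 and 1.33 FPKM with stabilization, against 4.40 and 1.72 FPKM without it. The stabilized knockout lay above WT, so the groups overlapped, and the difference of -0.56 was not called (adjusted p = 0.0784). Its log2 ratio was -0.85 without Ndp and -0.28 with it. Cav1, the caveolin that endothelium and Müller glia express, was at 12.9 and 10.2 FPKM with stabilization, against 18.2 and 17.7 FPKM without it (-0.62, adjusted p = 0.00903). Ptrf, a coat protein of the same caveolae, moved the other way, at 2.35 and 2.02 FPKM against 1.13 and 0.879 FPKM (0.84, adjusted p = 0.0123). Of 8 tested genes 2 were higher and 1 lower, against 1.83% and 1.12% of all tested genes, with a median of -0.23. Cav1 was called in 1 of the fits without 1 library, that without the stabilized knockout (-0.78), and Ptrf in that without the stabilized library (0.93).

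Of 14 tested BMP and TGF-beta genes 2 were higher and 2 lower, against 1.83% and 1.12% of all tested genes. Of all 20 listed genes 7 (35%) did not overlap in the higher direction, against 26.4% of detected genes, and 5 (25%) in the lower, against 21.3%. Eng and the TGF-beta receptor gene Tgfbr2 (1.79 and 1.76 FPKM with stabilization, against 0.561 and 0.918 FPKM without it) rose, the second by 0.89. Tgfbr2 met the minimum only through the stabilized libraries. Id1, a target of BMP signalling, was at 17.1 and 18.9 FPKM, against 31.1 and 26.6 FPKM (-0.66, adjusted p = 0.00996), and Id2 fell by 0.45. For Id1 both stabilized libraries lay below both others. Tgfbr2 was called in none of the fits without 1 library (0.68 to 1.10), and Id1 in all but that without the knockout (-0.55).

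Erythroid RNA moved with the vascular genes. Hba-a1, an alpha-globin gene, was at 119 and 99.8 FPKM with stabilization, against 51.5 and 42.1 FPKM without it (1.22, adjusted p = 0.000273). Its near-identical copy Hba-a2 was at 13.5 and 17.1 FPKM, against 0.0007 and 3.79 FPKM, and how reads were divided between the copies is uncertain. The 10 erythroid genes measured summed to 267 and 249 FPKM with stabilization, against 158 and 157 FPKM without it, and none was at 0 in all libraries. Of 7 tested genes 3 were higher and none lower, against 1.83% and 1.12% of all tested genes. Fech and Bpgm, which other cells also express, were not called. Whether blood left in the retinas bears on the vascular genes was not tested. Hba-a1 was called in all 4 fits without 1 library, and Hba-a2 was not called without the stabilized knockout (3.58), the stabilized library (3.26) or with the robust estimate.

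Markers of fibroblasts, the ocular surface and microglia were measured as well. Of 12 fibroblast and ocular surface genes 3 met the filter, and Pdgfra, which retinal astrocytes also express, was called, at 10.2 and 8.91 FPKM with stabilization against 5.10 and 5.06 FPKM without it (0.84, adjusted p = 0.00201). The list summed to 33.5 and 24.3 FPKM, against 19.4 and 17.1 FPKM, and Lum and Krt5 were at 0 in the stabilized knockout, the knockout and WT. Of all 12 genes 5 (41.7%) did not overlap in the higher direction, against 26.4% of detected genes, and 0 in the lower. The fibroblast collagen gene Col3a1, under the minimum mean, was at 1.06 and 0.544 FPKM, against 0.267 and 0.0958 FPKM, and Postn, a matrix protein of fibroblasts, at 1.05 and 1.03 FPKM, against 0.666 and 0.761 FPKM. The part of such cells in the matrix genes was not tested. Of 15 tested microglia genes 1 was higher, the receptor gene Csf1r at 4.09 and 4.02 FPKM against 2.81 and 2.72 FPKM (0.48, adjusted p = 0.0378), and none lower. The microglia list summed to 97.4 and 88.2 FPKM with stabilization, against 83.7 and 95.8 FPKM without it, so the groups overlapped. The interferon-induced genes Ifitm3 (1.14), which endothelium expresses, and Bst2 (0.65) were higher among 7 tested. Beside these list counts, 1.83% of all tested genes were called higher and 1.12% lower. Ifitm3 was not called without the knockout (1.09) or WT (1.20), and Bst2 was called only without the stabilized knockout (0.78). Bst2 met the minimum only through the stabilized libraries.

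**Figure D3:**
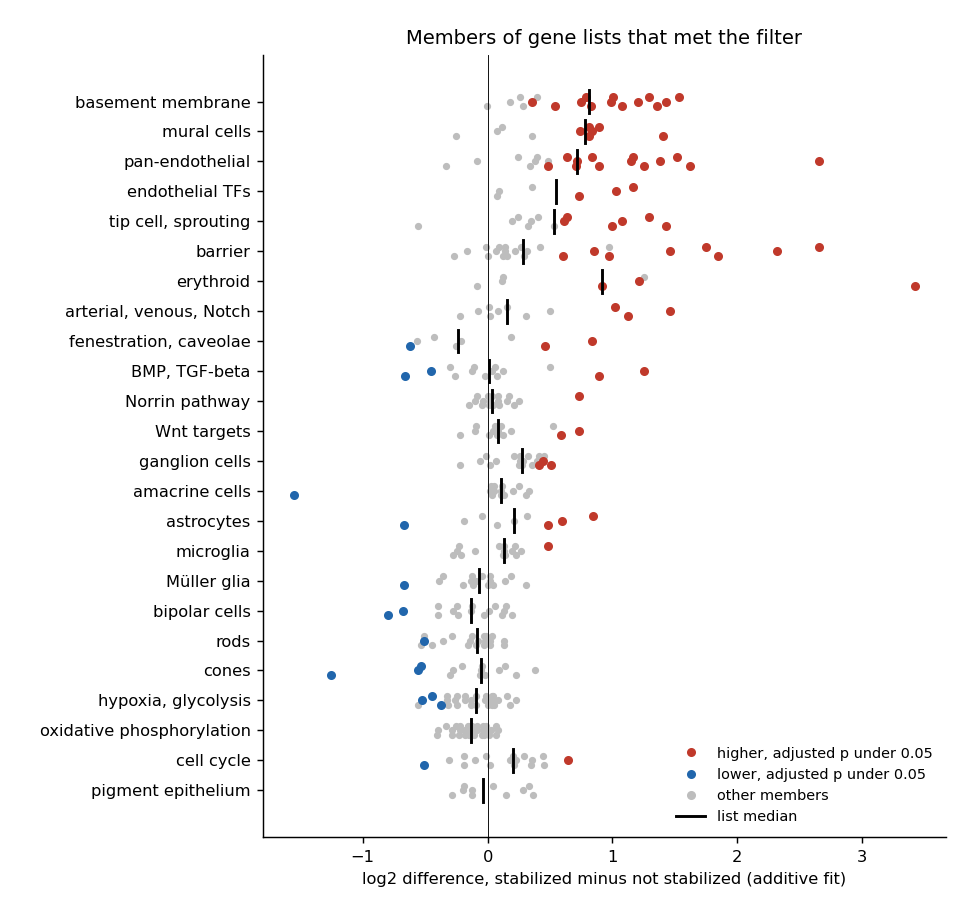
Additive log2 difference, stabilized minus not stabilized, of each list member that met the filter (points, with called genes in red and blue) and the median of the list (black bar). Basement membrane, mural, pan-endothelial and erythroid medians (0.81, 0.78, 0.71 and 0.92) lie right of 0, and those of rods, cones, bipolar cells and Müller glia (-0.08, -0.06, -0.13 and -0.07) just left of it. Ganglion cell, astrocyte and amacrine medians (0.27, 0.21 and 0.11) also lie right of 0.

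Medians of the rod, cone, bipolar, horizontal and Müller glia lists ran from -0.13 to -0.05, and single genes differed by more. In the lower direction libraries did not overlap for 30%, 50%, 50%, 62.5% and 43.8% of these lists in turn, against 24.1% of all tested genes. In the higher direction the shares were 5%, 28.6%, 25%, 37.5% and 18.8%, against 29.6%. Ganglion cell, astrocyte and amacrine medians lay above 0 (0.27, 0.21 and 0.11). The first of these was near the median of barrier genes (0.28). Amacrine genes did not overlap in the higher direction for 62.5% of the list, against 26.4% of detected genes, and in the lower for 6.25%, against 21.3%. Drd4, the dopamine receptor of photoreceptors and some inner retinal neurons, was at 18.2 and 9.88 FPKM with stabilization, against 53.9 and 30.0 FPKM without it. Within each Ndp state the stabilized library was lower (log2 ratios -1.54 and -1.56), and the difference was -1.55 ± 0.07 (limma adjusted p = 2.99e-05). Drd4 also differed by Ndp genotype in the same fit and was called without the stabilized knockout (-1.97) but not without any other library. Opn1mw, the opsin of cones for medium wavelengths, was at 9.22 and 6.56 FPKM, against 18.3 and 20.1 FPKM (-1.25, adjusted p = 0.00201), and lost its call without the knockout (-1.32) or WT (-1.18). Pde6h, the inhibitory subunit of cone phosphodiesterase (-0.54), and the channel subunit gene Kcne2 (-0.56) were lower too, so 3 of 14 cone genes were lower and none higher, with a median of -0.06. Of 20 rod genes 1 was lower, the photoreceptor kinase gene Grk1 at 64.8 and 57.2 FPKM against 89.2 and 84.7 FPKM (-0.51, adjusted p = 0.0176). Among all tested genes 1.12% were called lower.

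Of 16 bipolar genes 2 were lower, Gng13, the G protein gamma subunit of ON bipolar cells (35.8 and 28.6 FPKM with stabilization, against 54.9 and 47.9 FPKM without it, -0.67), and Lrtm1 (-0.79). Both share their deposited locus with another gene and are uncertain, and both were called only without the stabilized knockout (-0.83 and -1.002) among the fits without 1 library. Ganglion cell genes lay on the other side of 0, where 3 of 19 were higher, none was lower and the median was 0.27. These were Nefm, a neurofilament gene, at 44.2 and 42.8 FPKM against 36.6 and 25.4 FPKM (0.51, adjusted p = 0.0453), Ebf3 (0.44) and Rbpms (0.42). Libraries did not overlap in the higher direction for 14 of the 19 (73.7%), against 29.6% of all tested genes. The loci of Nefm and Ebf3 are shared with other genes. Of 16 Müller glia genes 1 was lower, the water channel gene Aqp4 at 2.97 and 1.94 FPKM against 4.39 and 3.88 FPKM (-0.67), and Gfap, the filament gene of astrocytes and stressed Müller glia, was higher at 8.80 and 7.10 FPKM against 6.38 and 4.02 FPKM (0.59, adjusted p = 0.0204). Gfap was called in none of the fits without 1 library (0.29 to 0.90), and Aqp4 only without the stabilized knockout (-0.93). Of 9 tested astrocyte genes 3 were higher, Gfap and Pdgfra among them, and Aqp4 was lower, with a median of 0.21. Of all 11 listed astrocyte genes 5 (45.5%) did not overlap in the higher direction, against 26.4% of detected genes. In the lower direction 2 (18.2%) did not, against 21.3%. None of 8 horizontal cell genes and none of 10 pigment epithelium genes was called. Beside these list counts, 1.83% of all tested genes were called higher and 1.12% lower.

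Hypoxia-induced and glycolytic genes showed 3 lower and no higher calls among 29 tested, against 1.12% and 1.83% of all tested genes. Their median was -0.09. Ankrd37, a direct target of the hypoxia factor, was at 24.2 and 23.5 FPKM with stabilization, against 30.2 and 35.1 FPKM without it (-0.44, adjusted p = 0.0313), the adenylate kinase gene Ak4 fell by 0.52 and the collagen hydroxylase gene P4ha1 by 0.37. Libraries did not overlap in the lower direction for 14 of 31 measured genes (45.2%), against 21.3% of detected genes. None of 32 genes of oxidative phosphorylation was called, with a median of -0.14. Their median log2 ratio was -0.02 in the pair without Ndp and -0.26 in the pair with it. Libraries did not overlap in the lower direction for 17 (53.1%), against 24.1% of all tested genes. Of 17 tested cell cycle genes the replication helicase gene Mcm6 was higher (4.497 and 4.67 FPKM, against 2.76 and 2.75 FPKM, 0.64) and Ccna2 lower (6.29 and 6.31 FPKM, against 9.16 and 9.17 FPKM, -0.51). Ccna2 shares its deposited locus with another gene, and Mcm6 was called only without the stabilized knockout (0.67). Over all 29 listed cell cycle genes, 18 (62.1%) did not overlap in the higher direction, against 26.4% of detected genes, and of the 12 under a mean of 1 FPKM 8 (66.7%) did not, against 20%. In the lower direction 5 (17.2%) of all and 1 (8.33%) of the low cell cycle genes did not overlap, against 21.3% and 15.7%. Among the low genes, which were not tested, the proliferation marker Mki67 was at 0.842 and 0.704 FPKM with stabilization, against 0.338 and 0.384 FPKM without it. Top2a, a topoisomerase of dividing cells, was at 1.44 and 1.22 FPKM, against 0.660 and 0.658 FPKM.

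Several of the highest and lowest genes belonged to none of the lists. Gdpd3, a lysophospholipase D, was at 5.13 and 5.52 FPKM with stabilization, against 1.06 and 1.32 FPKM without it (1.79 ± 0.10, adjusted p = 0.000194). Prnd, which encodes the prion-like protein doppel of brain endothelium, was at 3.57 and 3.91 FPKM, against 0.656 and 1.01 FPKM (1.68 ± 0.12, adjusted p = 0.000568). Txnip, a thioredoxin-binding protein that responds to glucose, was at 24.7 and 29.6 FPKM, against 11.5 and 13.8 FPKM (1.08, adjusted p = 0.000273). In all of these the libraries were apart and the call held in each fit without 1 library. The serpin gene Serpina3h rose by 1.68 and was not called without the knockout (1.22).

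Genes that fell outside the lists were Spc25, of the kinetochore, at 12.1 and 11.004 FPKM with stabilization against 23.0 and 21.1 FPKM without it (-0.90, adjusted p = 0.000777), and Dip2c at 5.34 and 5.49 FPKM against 10.1 and 9.84 FPKM (-0.82, adjusted p = 0.00195). Both were called in each fit without 1 library. Pomc, the precursor of melanocortins, fell by 0.89, Dapl1 by 0.80 and Aldh1a1, a retinoic acid synthase of dorsal retina, by 0.71. The potassium channel gene Kcnj14 was at 1.85 and 3.37 FPKM, against 5.83 and 5.33 FPKM (-1.01), with ratios of -1.43 without Ndp and -0.59 with it. Dapl1 and Kcnj14 were not called without the knockout (-0.72 and -0.95) or without WT (-0.88 and -1.07), nor Pomc (-0.79) and Aldh1a1 (-0.65) without the knockout. Kcnj14 was not called with the robust estimate either.

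Genes of lipid and cholesterol handling, a list chosen after their values were seen, held 5 higher and no lower calls among 29 tested. The shares over all tested genes were 1.83% and 1.12%, and the median of the list was 0.06. Of all 30 listed genes 16 (53.3%) did not overlap in the higher direction, against 26.4% of detected genes, and 5 (16.7%) in the lower, against 21.3%. Srebf1, the transcription factor of fatty acid synthesis, was at 34.5 and 40.0 FPKM with stabilization, against 21.2 and 22.8 FPKM without it (0.74, adjusted p = 0.00195). The cholesterol exporter gene Abca1 was at 12.9 and 16.04 FPKM, against 7.42 and 9.19 FPKM (0.76, adjusted p = 0.00195), and the phospholipid transfer protein gene Pltp at 3.04 and 3.95 FPKM, against 1.39 and 1.85 FPKM (0.91). The libraries were apart in each of these genes, and Srebf1 and Pltp share their deposited loci with other genes.

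Genes near the engineered loci were counted separately, although the labels do not say where the CreER transgene lies. Within 2, 5 and 10 Mb of Ctnnb1 on chromosome 9, 2.94%, 3.57% and 3.75% of 34, 56 and 80 tested genes were called, against 2.94% of all tested genes. Around Pdgfb on chromosome 15 the shares were 4.29%, 3.64% and 4.15% of 70, 165 and 217 genes. The 3 called genes within 2 Mb of Pdgfb were Apobec3 (9.68 and 4.01 FPKM with stabilization, against 0.515 and 0.623 FPKM without it), the Polycomb gene Cbx7 (18.8 and 19.5 FPKM, against 8.76 and 11.7 FPKM) and Pppde2, which was lower (-0.36). Apobec3, a cytidine deaminase that restricts retroviruses, had the second largest difference among genes called higher (2.67) and shares its deposited locus with another gene. It was not called without the knockout (2.59), without WT (2.74) or with the robust estimate.

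A run of 19 tested genes on chromosome 2, between 175061549 and 178078425 on mm10, was lower in both pairs without exception, and was noticed after its values were seen. Both stabilized values lay below both others for all 19, against 24.1% of all genes, 9 were called lower, against 1.12%, and the median was -0.41. Gm14440 was at 0.0425 and 0.0115 FPKM with stabilization, against 4.77 and 5.77 FPKM without it, Gm14308 was lower by 1.07, and the others differed by 0.19 to 0.60. RefSeq gives 7 of the genes a zinc-finger symbol (Zfp) and places 6 of the 19, Gm14440 and Gm14308 among them, at loci apart from the deposited ones on the same assembly. The genes share sequence, so reads of 1 copy can count for others and the 19 values are not independent. LOC100861572 on chromosome 12 was listed at 0 in both stabilized libraries, against 99.8 and 107 FPKM in the knockout and WT. It shares its deposited locus with another gene and is not annotated in the reference used here, so its value is uncertain. The X chromosome between 70 and 75 Mb held 6 higher and 1 lower call among 50 tested genes, against 1.83% and 1.12% of all tested genes. It was noticed after its calls were seen, as the window with most calls after that of the chromosome 2 run among 530 windows of 5 Mb. Xlr3a, Xlr3b, Xlr3c, which are near-identical copies, the proteoglycan gene Bgn, the adhesion gene L1cam and Hcfc1 were higher there and Opn1mw lower.

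**Figure D4:**
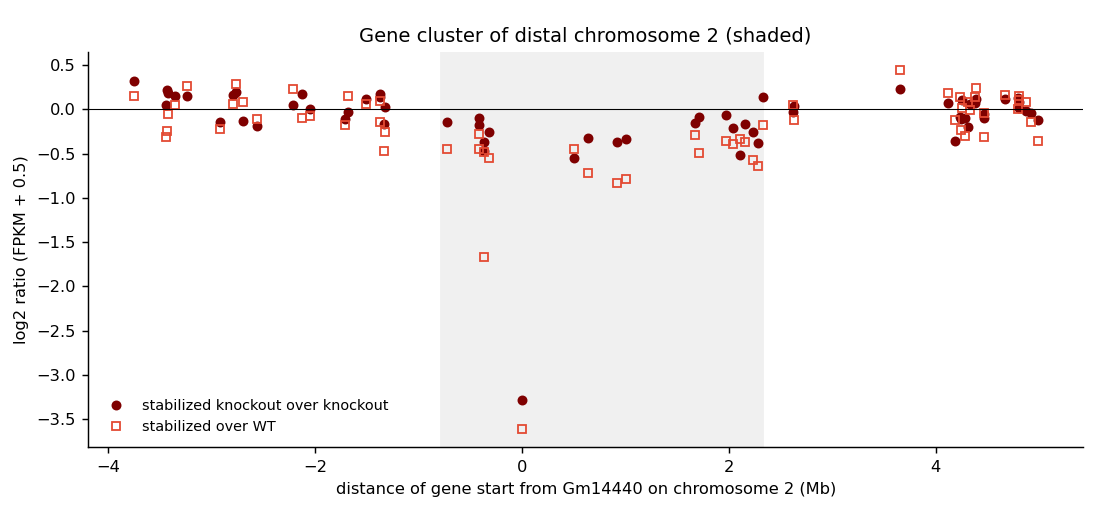
Log2 ratio of tested genes by distance from Gm14440 along chromosome 2, for the stabilized knockout over the knockout (filled) and the stabilized library over WT (open). All 19 genes in the shaded run lie below 0 in both pairs, and ratios on either side of it scatter around 0.

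Transcript length and GC content moved with the ratios. The median transcript was 3962 bases for higher, 2241 bases for lower and 3413 bases for the other tested genes, and the median GC content 53.3%, 47.6% and 49.7%. With tested genes cut into 5 groups of nearly equal size, the group of shortest transcripts had a median log2 ratio of -0.01 for the stabilized knockout over the knockout and -0.13 for the stabilized library over WT, and the group of longest 0.04 and 0.03. After a trend on both properties was removed, 209 higher and 124 lower genes were called, of which 170 and 98 had been called before. The medians of the vascular lists kept their sign, at 0.75 for pan-endothelial, 0.69 for basement membrane, 0.65 for mural and 0.22 for barrier genes, while that of oxidative phosphorylation shrank to -0.03.

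**Figure D5:**
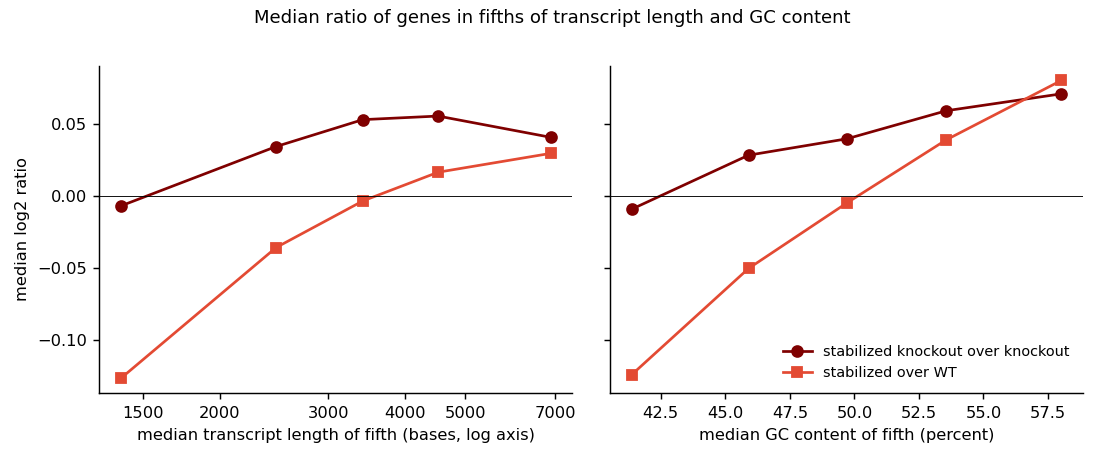
Median log2 ratio over 5 groups of tested genes by transcript length (left, log axis) and GC content (right), for the stabilized knockout over the knockout and the stabilized library over WT. Both lines rise with GC content, from -0.01 and -0.12 in the lowest group to 0.07 and 0.08 in the highest, and with length the pair with Ndp rises more than the pair without it.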

How the data were processed

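RNA of whole retinas was measured in 4 libraries, 1 per genotype, grouped by GEO's labels. The FPKM values were deposited by the authors as 1 table, with interval bounds and a status flag beside each value. TopHat and Cuffdiff were run on mm10, per the submitters' processing notes. No source used here gives their versions, the annotation, read totals or the intervals' level. Depth is therefore unknown, and FPKM carry no counting error that could be computed. FPKM are relative within a library, so a change in abundant RNA shifts the others. Of all listed genes, 4285 have the same deposited locus as another. No source used here says how reads were divided among them or among near-identical copies.

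Log2 values were taken of FPKM plus a pseudocount of 0.5, which understates changes of low genes. The filter left out 145 genes with a status other than OK in at least 1 library and 245 short RNA genes that otherwise met it. limma 3.58.1 in R 4.3.3 fitted stabilization and Ndp genotype with a mean-variance trend, two-sided, with Benjamini-Hochberg adjustment over 12905 genes. The procedure was run on simulated data with known changes, equal in both Ndp states, and independent normal noise. That run cannot show how the fit does with spread between mice or unequal changes. Replicate numbers are all 1 and pair no samples, and the Ndp term takes the place of a block. P-values set the stabilization difference against an error taken from the departure from additivity between pooled libraries, not from spread between mice. Gene lists were described by counts and medians without a set test. Lengths and GC content of transcripts were taken from GENCODE M21 for 98.9% of tested genes. Python 3.11.15 with pandas 2.3.3 and matplotlib 3.10.9 was used for tables and plots.

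The members and lists were chosen with earlier results of these data known. Named genes were the 15 highest and 15 lowest consistent genes without provisional symbols, up to 5 consistent members per list and direction at 1.5-fold or more, and a set of fixed genes. Genes outside that rule were named after their values were seen: Slc7a1, Slc7a5, Slco2b1, Kdr, Fn1, Hspg2, Tagln, Ctgf, Notum, Tnfrsf19, Mki67, Top2a, Col3a1, Postn, Icam2, Id2, Csf1r, Kcne2, Pde6h, Grk1, Nefm, Ebf3, Rbpms, Ankrd37, Ak4, P4ha1, Ccna2, Fech, Bpgm, Srebf1, Abca1, Pltp, Cbx7, Pppde2, Lum, Krt5, Bgn, L1cam, Hcfc1, the Xlr3 genes, Gm14440, Gm14308, LOC100861572 and the low transcription factors. Alternatives were other pseudocounts and minimum means, re-centring, rescaling to the same total, all statuses, short RNA genes kept, no Ndp term, no trend, a robust variance and each library left out. Removing length and GC trends, genes on X and Y or genes sharing a locus, and combining robust variance with 2 other settings, were chosen after seeing the data.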

Additional observations from a re-analysis of the deposited data

Results flagged for a closer look

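For 5 genes the pairs of libraries moved at least 1.5-fold in opposite directions, and these differences between the Ndp states were not tested, since each pair holds 1 library per side. The ribosomal protein gene Rps27 had a log2 ratio of 3.34 for the stabilized knockout over the knockout and -2.52 for the stabilized library over WT, and it has near-identical copies. Klk1b22, of the kallikrein cluster, had ratios of 2.92 and -0.80. The unnamed gene 1810007I06Rik had ratios of 1.65 and -1.70, and 1810035I16Rik 0.66 and -0.91. Clcf1, a cytokine of the interleukin 6 family, had ratios of -0.82 and 0.82, from 0.860 FPKM in the stabilized knockout against 1.90 FPKM in the knockout, and from 1.91 FPKM in the stabilized library against 0.869 FPKM in WT. Of these genes Rps27, 1810007I06Rik and 1810035I16Rik share their deposited locus with another gene.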

How the results depend on the processing

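Against 236 higher and 144 lower calls, limma called 483 and 449 after re-centring on the median, 414 and 239 after rescaling to the same total, 364 and 237 with a robust variance, 126 and 54 without the mean-variance trend and 98 and 43 without the Ndp term (no replicate block). With a minimum of 5 FPKM 222 genes were lower. With short RNA genes kept 5 and 14 were called. With no minimum mean it called 0 and 0, with the robust variance too, although 1664 higher and 950 lower genes had an unadjusted p under 0.05. Leaving out each library gave 47 to 100 higher and 9 to 134 lower calls, and 3968 to 5258 genes that did not overlap in the lower direction, against 3106, since fewer libraries overlap less often. The cause of the other changes was not tested. The Ndp term already sets the libraries against each other within both Ndp states, and replicate numbers, 1 per genotype, pair no samples. Signs turned only for differences that were not called. Leaving out 1 library could not turn the sign of a called gene whose libraries did not overlap. Over the fits without 1 library, Slc2a1 ran from -0.16 to 0.13, Xist from -3.15 to 3.12, Ndp from -0.82 to 0.52, Nkd1 from -0.13 to 0.22, Fzd4 from -0.10 to 0.013 and Plvap from -1.14 without WT to 0.0080 without the knockout. After rescaling Slc2a1 was at 0.0045 and Xist at 0.0053. After removal of length and GC trends Axin2 was at -0.034, Nkd1 at -0.032 and Xist at 0.087. Over 75 named genes and all settings, 1156 values kept their direction and side of the threshold, 317 lost and 26 gained the call. Plvap was called with re-centring only.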
